A study of Mus musculus with 4 samples.

Results

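Expression of 6 genes was followed through 4 spatial transcriptomes of mouse tumors: Cxcl13, which encodes a chemokine that draws B cells, and 5 genes used in B cells or the antibody-secreting cells that arise from them, Igkc, Ighm, Jchain, Cd79a and Ms4a1. The genes were chosen by symbol and are 6 of the 32285 genes in the tables. Each section came from a separate tumor of MC38, a transplantable colon cancer line from C57BL/6 mice, which had been injected under the skin of female hosts 8 to 12 weeks old. The hosts of 2 tumors, called CC075F1, were crosses of C57BL/6J with CC075/UncJ. Those of the other 2, called CC080F1, were crosses of C57BL/6J with CC080/TauUncJ. CC lines (Collaborative Cross) are inbred mice that mix the genomes of several founders. The study classes CC075F1 as a responder and CC080F1 as a non-responder to anti-PD-1. All 4 hosts carried tumors of 75 to 110 mm3 when they received 200 µg of an isotype control antibody (2A3), and the tumors were taken 48 hours later. No anti-PD-1 treated section was analysed here.

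CXCL13 is a ligand of CXCR5, a receptor carried by B cells and by T cells that help them. In lymphoid organs it is made by follicular stroma and gathers B cells into follicles, and in tumors it has been used as a sign of lymphoid aggregates, though T cells and macrophages can make it as well. A B cell shows its antibody on the surface, with the heavy chain encoded by Ighm or Ighd, a light chain that in mice is mostly kappa (Igkc), and the signalling partner CD79A. MS4A1 (CD20) marks B cells before they become antibody-secreting cells, which lose it, make large amounts of Igkc and one heavy chain, and use Jchain to join antibodies of the IgM and IgA classes.

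On GRCm38, GENCODE vM21 placed Cxcl13 (ENSMUSG00000023078) at chr5:95956951-95961068 on the plus strand and Jchain (ENSMUSG00000067149) at chr5:88519809-88527891 on the minus strand. Igkc (ENSMUSG00000076609) lay at chr6:70726435-70726966 (plus) and Ighm (ENSMUSG00000076617) at chr12:113418558-113422730 (minus), both annotated as constant region genes. Cd79a (ENSMUSG00000003379) lay at chr7:24897381-24902197 (plus) and Ms4a1 (ENSMUSG00000024673) at chr19:11249675-11266241 (minus). RefSeq promoter windows of 300 bases (250 before and 50 after the start) were at hand for 3 of the 6 genes, Cxcl13, Jchain and Cd79a. The window of Cxcl13 is shown because, of the 6, that gene differed most between the strains. It is reference (C57BL/6J) sequence, GRCm38.p6 chr5:95956689-95956988, plus strand, with a TATAAA match in capitals.
Cxcl13: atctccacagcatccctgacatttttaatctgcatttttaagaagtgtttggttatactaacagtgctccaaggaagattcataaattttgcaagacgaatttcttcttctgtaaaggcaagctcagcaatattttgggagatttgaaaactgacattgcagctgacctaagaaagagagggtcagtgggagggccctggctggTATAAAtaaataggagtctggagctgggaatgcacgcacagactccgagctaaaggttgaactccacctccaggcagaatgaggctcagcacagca
The letters TATAAA, read on both strands and chosen after the window had been seen, are in 13.6% of 32851 windows of this length. The windows were also read on both strands for the octamer ATGCAAAT (in 1.74% of all windows), the palindromic EBF1 motif of B cells (0.904%) and the kappa B motif (0.411%). None of these motifs was in any of the 3 windows.

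The sections held 2710 to 3276 spots under tissue (1 of them without a UMI) and 82594649 to 146460975 UMIs (unique molecular identifiers, each marking 1 captured RNA), with 31139 to 41740 UMIs in the median spot. A spot covers several cells, so a gene in a spot is not a gene in a cell. CC075F1 replicate 2 was the deepest section and also the one with most spots of tissue other than tumor, at its rim. In it, 28 spots drew at least 1% of their UMIs from lists of skeletal muscle, keratinocyte and adipocyte genes. The other sections had 0, 0 and 1 such spots. CC080F1 replicate 1 held muscle RNA below this limit, with 626 UMIs of the muscle gene Acta1 in 272 spots. Acta1 had 11124 UMIs in CC075F1 replicate 2, 9 in CC075F1 replicate 1 and 20 in CC080F1 replicate 2. The sections shared 1666 spot barcodes, all at the same grid position, as the slide design gives. The labels name no library batch or date, so such a batch and the strain cannot be told apart. With 2 sections of a strain, the two-sided exact permutation test of section values cannot give a p below 0.333, so it cannot pass 0.05.

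Cxcl13 was found almost only in the CC075F1 tumors, and very unequally in them. CC075F1 replicate 1 held 8367 Cxcl13 UMIs and replicate 2 held 1354, against 22 and 14 in CC080F1 replicates 1 and 2, so that 99.6% of its UMIs lay in CC075F1. In CPM (counts per 1e6, a gene's UMIs over the total of its section), CC075F1 replicates 1 and 2 stood at 101 and 9.24, and CC080F1 at 0.235 and 0.124. The sections did not overlap, and the lower CC075F1 section was still well above both CC080F1 sections, but the CC075F1 sections differed from each other by 11 times.

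The share of spots with at least 1 Cxcl13 UMI was 81.7% (exact 95% interval 80.2% to 83.1%) in CC075F1 replicate 1 and 24.8% (23.4% to 26.4%) in replicate 2. In CC080F1 it was 0.718% (0.439% to 1.11%) and 0.410% (0.218% to 0.699%). These intervals, like all those given here, cover counting error only. With every spot thinned to 10000 UMIs and shallower spots left out, the shares were 56.7%, 8.53%, 0.226% and 0.130% in the same order. The highest single spot held 30, 13, 2 and 2 UMIs.

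The mean level of Cxcl13 in CC075F1 was 55.3 ± 65.1 CPM and that in CC080F1 was 0.180 ± 0.0784 CPM (SD, n = 2 sections for either strain), a ratio of 308, with an exact permutation p of 0.333. Left out in turn, single sections moved this ratio between 51.5 (without CC075F1 replicate 1) and 564 (without CC075F1 replicate 2). In the edgeR quasi-likelihood test on section sums, fitted over 15572 genes, the log2 fold change was 8.38 (SE 1.10) with an adjusted p of 0.0742, so Cxcl13 did not pass the threshold of 0.05. It was the third largest log2 fold change of all genes tested and ranked 22 by p. Alternative fits on all 4 sections were mixed. Cxcl13 passed with section totals alone, no filter on low counts, the DESeq2 Wald test and the replicate number as a block. It did not pass in the others, and adjusted p ran from 4.25e-73 (edgeR, no filter) to 0.356 (limma-voom). The labels do not make the replicate number a pairing. The CC075F1 sections differed by 11 times, so passing in some fits is not taken as certainty. Without 1 section the log2 fold change ran from 6.29 to 9.22. Fewer cells making Cxcl13 and less Cxcl13 RNA per cell cannot be told apart in these spots.

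**Figure D1:**
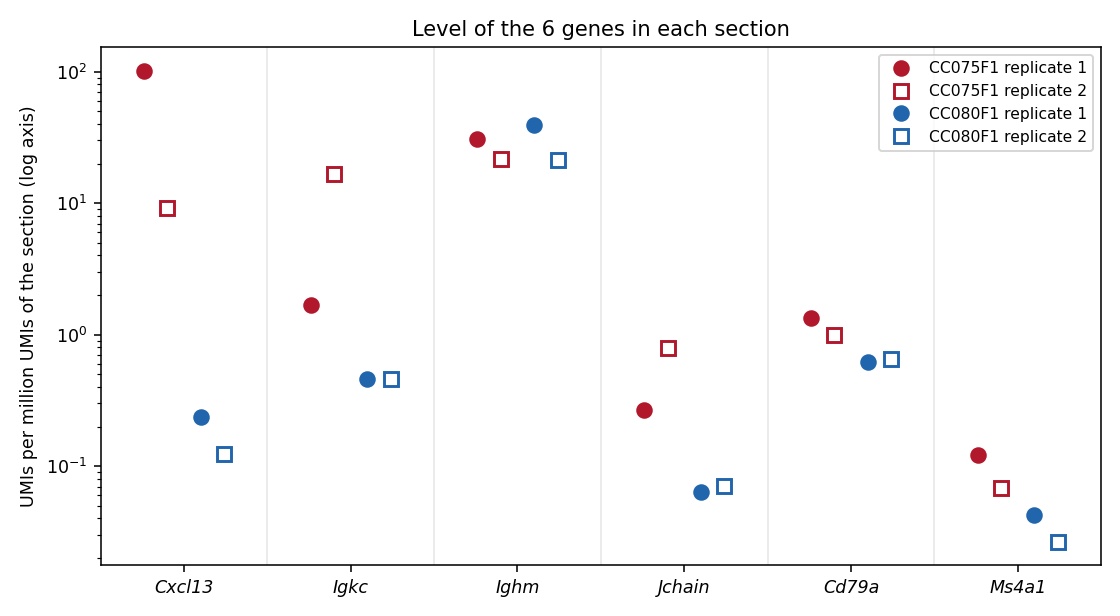
Level of each of the 6 genes in the 4 sections, in CPM on a log axis; 1 point is 1 section, red for CC075F1, blue for CC080F1, filled for replicate 1 and open for replicate 2. Cxcl13 falls from 101 and 9.24 in CC075F1 to 0.235 and 0.124 in CC080F1, Igkc is highest in CC075F1 replicate 2 at 16.5, and the 2 strains overlap for Ighm.

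Over all genes tested, 14 passed the threshold (0.0899%), with 0.0578% higher and 0.0321% lower in CC075F1, and 846 (5.43%) had an unadjusted p under 0.05. The share that passed was 1.25% with the DESeq2 Wald test, 1.84% with the replicate number as a block and 2.13% with no filter on low counts. Of the 6 genes, 5 passed the filter on low counts (Ms4a1 did not), 0 passed the adjusted threshold in edgeR, and 4 had an unadjusted p under 0.05. For the same 4, Cxcl13, Igkc, Jchain and Cd79a, each CC075F1 section was higher than each CC080F1 section in CPM. This held for 6.63% of all genes tested, and the reverse, seen for 0 of the 5, held for 30.3%. Over all genes the median log2 fold change was -0.02 with TMM scaling and -0.31 with the section totals alone, and the direction of these 4 genes was the same under both.

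Cd79a, the signalling partner of the surface antibody, was sparse in every section and higher in CC075F1. CC075F1 replicates 1 and 2 held 111 and 145 of its UMIs, and CC080F1 replicates 1 and 2 held 58 and 73, or 1.34, 0.990, 0.620 and 0.648 CPM. The sections of the strains did not overlap, and the means were 1.17 ± 0.250 and 0.634 ± 0.0198 CPM (SD, n = 2 each), a ratio of 1.84. The log2 fold change was 1.17 (SE 0.38), with an adjusted p of 0.700 in edgeR, and it stayed positive in all 12 alternatives (0.88 to 1.29) without passing in any. No spot held more than 3 Cd79a UMIs.

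Ms4a1 was close to the limit of detection. The sections held 10, 10, 4 and 3 UMIs, CC075F1 first, which were 0.121, 0.0683, 0.0427 and 0.0266 CPM. Of its 27 UMIs, 74.1% lay in CC075F1, but these were too few for the test over genes. A count of 0 would allow up to 3 UMIs in a section, or 0.0205 to 0.0363 CPM, so a strain difference in Ms4a1 was not detectable at this depth.

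Spots with a UMI of Cd79a or Ms4a1, called B spots below, made up 4.28% (exact 95% interval 3.55% to 5.11%) and 4.43% (3.75% to 5.19%) of CC075F1 replicates 1 and 2. In CC080F1 they made up 2.12% (1.62% to 2.72%) and 2.30% (1.81% to 2.88%). The strain means were 4.35% ± 0.103 and 2.21% ± 0.129 (SD, n = 2 each), a ratio of 1.97 with exact permutation p = 0.333. Without thinning, the gap between strains was wider than the gap between sections of a strain. The ratio was 2.00 when each spot was thinned to 10000 UMIs, with shares of 1.45%, 1.06%, 0.603% and 0.649%. After thinning, the CC075F1 sections lay about as far from each other as replicate 2 lay from the higher CC080F1 section.

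Ighm, the heavy chain of IgM, was spread over all 4 sections with no strain difference past the test. It was found in 54.9% and 52.3% of the CC075F1 spots and in 65.4% and 45.1% of the CC080F1 spots. Its section totals were 2526, 3171, 3679 and 2404 UMIs, CC075F1 first, or 30.6, 21.7, 39.3 and 21.3 CPM. The highest and the lowest section were both CC080F1, and the strains overlapped. The log2 fold change of 0.09 (SE 0.26, edgeR adjusted p = 0.943) changed sign under 3 of 12 alternatives. If Ighm was added to Cd79a and Ms4a1 in defining B spots, their mean share was 55.3% of spots for CC075F1 and 56.0% for CC080F1 (ratio 0.989).

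From spot to spot, Ighm and Cd79a shared slightly more spots than if placed independently. In CC075F1 replicate 1, 66 spots held both Ighm and Cd79a, where 58.8 would if the genes were placed independently, and in replicate 2 these counts were 83 and 72.2. In CC080F1 they were 47 and 36.7, and 40 and 31.6. At equal spot depth (Mantel-Haenszel over 10 depth strata), the odds ratio of Ighm and Cd79a was 1.11 and 1.16 in CC075F1 and 2.16 and 1.12 in CC080F1. The correlation of Ighm with Igkc over spots, each taken with its neighbours, ran from 0.007 to 0.105 over the 4 sections, as a description of spots that share a library. With the summed B cell identity list, whose most abundant gene is Cd72, Ighm correlated at 0.0582 and 0.289 in CC075F1 and 0.266 and 0.251 in CC080F1. Such values were not limited to B cell genes. With the macrophage and monocyte list Ighm stood at 0.120 and 0.247 in CC075F1 and 0.177 and 0.289 in CC080F1. With the endothelium list it stood at 0.0785, 0.281, 0.264 and 0.298 in the same order, and with Cd79a at 0.0335 to 0.0759. With the fibroblast list it was -0.246 and -0.00323 in CC075F1 and -0.152 and -0.220 in CC080F1.

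By the same measure (Pearson r of log2(CPM + 1) over spots summed with their up to 6 neighbours, mean of 4 sections, 11661 genes with at least 100 UMIs in every section), the genes most like the sum of the 5 B cell genes were Tmsb4x (0.462), Serinc3 (0.412), Pld4 (0.381), C1qb (0.380) and Aif1 (0.375). C1qb and Aif1 are genes of macrophages, and Tmsb4x encodes a thymosin found in most immune cells. Ighm holds 11780 of the 15000 UMIs of that sum, and its own list, added after the values had been seen, began with Tmsb4x (0.481), Serinc3 (0.415), H3f3a (0.391), Aif1 (0.380) and Nudt4 (0.376). In CC075F1 replicate 2, the section with most UMIs of the 5 genes, the sum was most like Ly6e (0.534), C1qc (0.521), Pld4 (0.510), Tmsb4x (0.508) and C1qb (0.506).

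Igkc and Jchain, the genes of antibody secretion, lay mainly in 1 section. Igkc had 140 UMIs in CC075F1 replicate 1, 2419 in CC075F1 replicate 2, and 43 and 52 in CC080F1, so CC075F1 replicate 2 alone held 91.1% of all Igkc. In CPM these were 1.70, 16.5, 0.460 and 0.461. Jchain had 22, 116, 6 and 8 UMIs in the same order (0.266, 0.792, 0.0641 and 0.0710 CPM), with 76.3% in CC075F1 replicate 2. For both genes the CC080F1 sections were nearly equal, and both CC075F1 sections were above them.

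The log2 fold change of Igkc was 4.84 (SE 1.12, edgeR adjusted p = 0.372) and that of Jchain 3.41 (SE 0.80, adjusted p = 0.380). Over the alternatives, 12 for Igkc and 11 for Jchain, both stayed positive. Their ranges were 1.93 to 5.74 and 2.00 to 4.10, and in each the lowest value came without CC075F1 replicate 2. Among fits on all 4 sections, Igkc passed with section totals alone, no filter on low counts and the replicate block. Its adjusted p ran from 6.52e-28 (edgeR, no filter) to 0.834 (limma-voom). Jchain passed with no filter, the DESeq2 Wald test and the replicate block, with adjusted p from 2.80e-05 (edgeR, no filter) to 0.564 (limma-voom).

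Summed over the 5 B cell genes, the levels were 34.0 and 40.0 CPM in CC075F1 and 40.5 and 22.5 CPM in CC080F1, which overlap (ratio of means 1.17, exact permutation p = 1). The sum followed Ighm. Without Ighm it was 3.43 and 18.4 CPM against 1.19 and 1.21 CPM, a ratio of 9.11. Without Ighm and without the spots of at least 5 Igkc UMIs described next, the ratio was 2.69. Both choices were made after the data had been seen.

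Within CC075F1 replicate 2, Igkc was packed into a few spots. Single spots held 814 and 406 of its 2419 UMIs, and 42 spots of at least 5 Igkc UMIs (a limit set after seeing the data) held 85.7% of it, 81.9% of Jchain and 65.1% of Mzb1, a gene of antibody-secreting cells. These 42 spots formed 14 groups of touching spots, and 33 of them lay within 3 steps of a position off tissue. CC075F1 replicate 1 had 2 such spots, apart from each other, with 29 and 10 UMIs, and the CC080F1 sections had none.

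The groups differed in the heavy chain beside Igkc, which was read after the values had been seen. The largest group, 23 spots with 1348 Igkc UMIs and 55 Jchain UMIs, held 1093 Ighg2c UMIs of 1216 heavy chain constant region UMIs (89.9%) and 1 of Igha. The second, 4 spots with 436 Igkc UMIs, held 261 Ighg2c UMIs (91.6%), and the third, 2 spots with 121 Igkc UMIs, held 62 of Igha (98.4%) and none of Ighg2c. Ighg2c encodes a heavy chain of IgG and Igha that of IgA. Of the 14 groups, 4 were led by Ighg2c, 5 by Igha, 3 by Ighm and 2 by another heavy chain gene, though the smallest held 5 Igkc UMIs and as few as 1 of a heavy chain, and 1 group led by Ighm was a tie. Both spots of CC075F1 replicate 1 were led by Igha.

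Over whole sections Ighg2c had 2, 1478, 2 and 2 UMIs and Igha 69, 192, 3 and 60, CC075F1 first. The IgG heavy chain genes are close copies of each other, so their split is uncertain. Ighm did not follow these groups, and the 42 spots, of 3276 in the section, held 41 of its 3171 Ighm UMIs (1.29%). They held 5 UMIs of Cd79a (3.45%), 0 of Ms4a1 and 16 of Cxcl13 (1.18%). Over the whole section, 23 spots held both Igkc and Cd79a, where 12.1 would if the genes were independent. At equal depth that odds ratio was 1.97. It was 0.750 in CC075F1 replicate 1 and 1.23 and 1.92 in CC080F1, from 3, 1 and 2 shared spots.

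Around the highest spot of the largest group, Igkc fell from 814 UMIs to 35.2 per spot at 1 step, 26.7 at 2 steps, 5.09 at 3 steps and 0.650 at 6 steps. Around the highest spot of the second group it fell from 406 to 6.75 and 8.60 per spot at 1 and 2 steps and to 0.750 at 3 steps. The rise was thus over within a few steps of each peak.

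Muscle genes were high in some of the Igkc groups of CC075F1 replicate 2 and absent from others. Skeletal muscle genes made up 4019 CPM in the largest group, 6481 in the second and 1386 in the third, against 153 in the whole section. In all, 7 of the 14 groups were above the section's level, the fourth group was at 33.2 CPM, and the other 6, all single spots with 5 to 11 Igkc UMIs, were at 0. The 28 spots with muscle, skin or fat genes held 1043 Igkc UMIs, the other edge spots 1059 and the interior spots 317, which is 1484, 57.7 and 2.49 CPM. Skeletal muscle genes stood at 14418, 558 and 15.6 CPM in these 3 kinds of spots. All 6 genes of the muscle list had a positive log2 fold change (3 at an unadjusted p under 0.05, 0 called). Their summed level was 5.53 and 153 CPM in CC075F1 and 17.1 and 3.88 CPM in CC080F1, and Myh4 was at 0 in CC075F1 replicate 1 and CC080F1 replicate 2. In interior spots of all sections the log2 fold change of Igkc was 2.64, and without the muscle, skin and fat spots 4.11. The part of this tissue in the strain difference was not tested beyond these values.

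**Figure D2:**
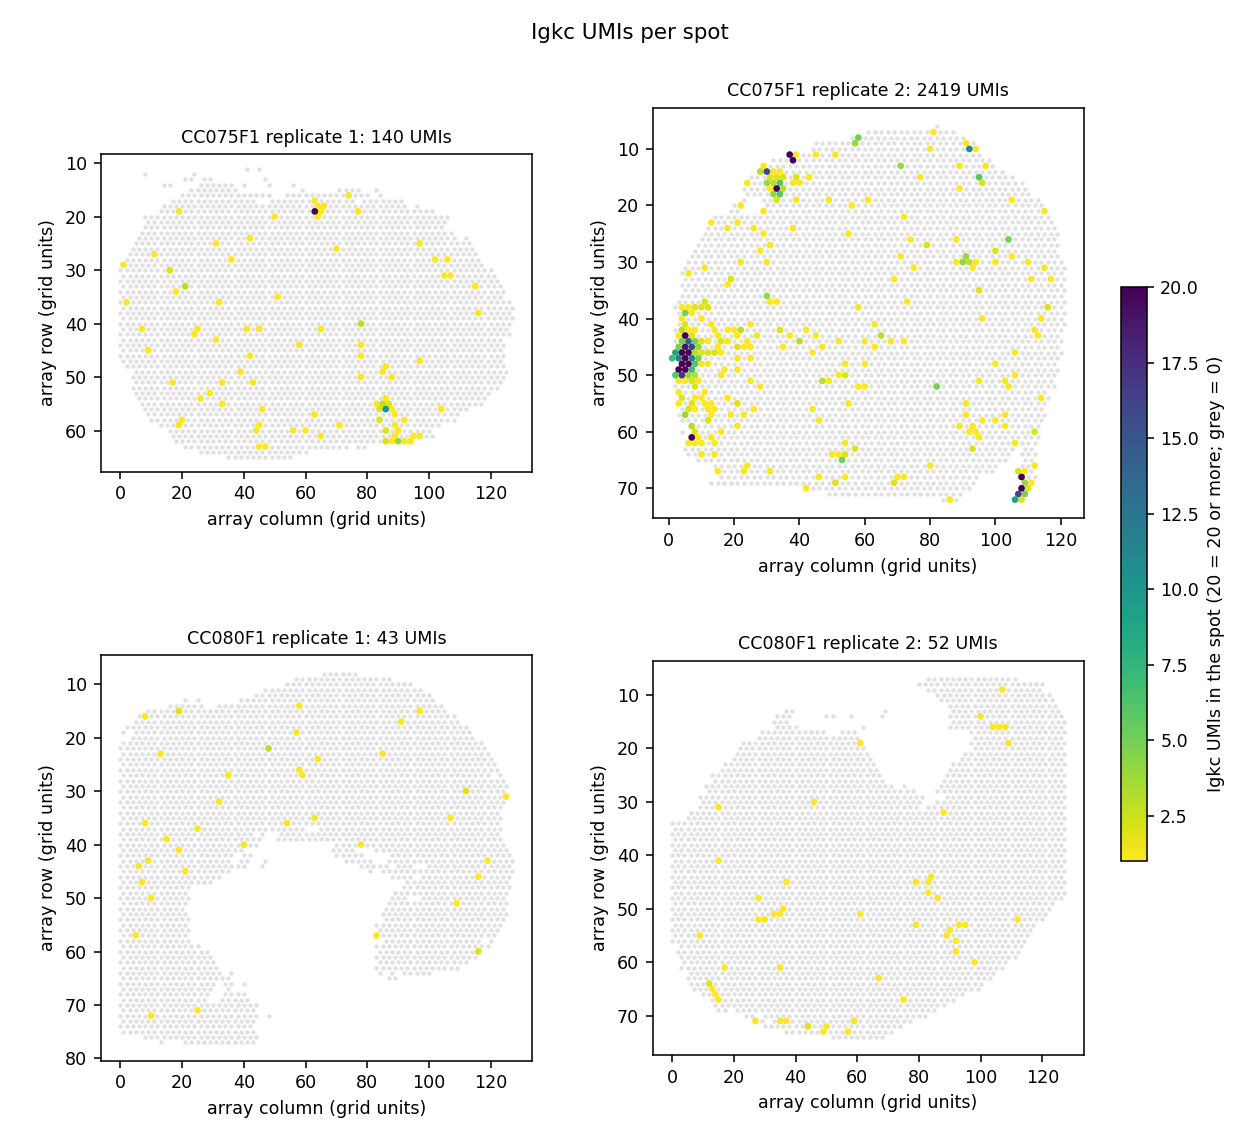
Igkc UMIs of each spot in the 4 sections, drawn at the spot's row and column on the array; grey spots have 0 and colors are capped at 20. In CC075F1 replicate 2 the dark spots sit in a few clumps at the rim, 1 of them with 23 touching spots, while the positive CC080F1 spots hold at most 3 UMIs each.

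Cd79a formed no such clumps, and Ms4a1, with 3 to 10 positive spots in a section, was too sparse to show any. Moran's I, which is near 0 for values scattered over the grid and rises as neighbours resemble each other, for Cd79a was -0.01 and 0.00 in CC075F1 and 0.03 and 0.00 in CC080F1. For Igkc it was 0.146, 0.346, -0.01 and 0.0745, and for Jchain 0.0953, 0.257, 0.00 and 0.00. Ighm, found in far more spots, had 0.0979, 0.178, 0.164 and 0.191, and its spots had an Ighm spot as neighbour at depth-matched odds ratios of 2.19, 1.85, 3.06 and 2.37. The largest group of touching B spots had 3, 3, 4 and 2 spots, and 97, 102, 43 and 61 of the 116, 145, 59 and 73 B spots touched no other. At equal depth, the odds ratio of a B spot having a B spot as neighbour was 0.578 and 1.21 in CC075F1 and 2.57 and 1.09 in CC080F1. The strains overlapped in this odds ratio (exact permutation p = 0.667).

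**Figure D3:**
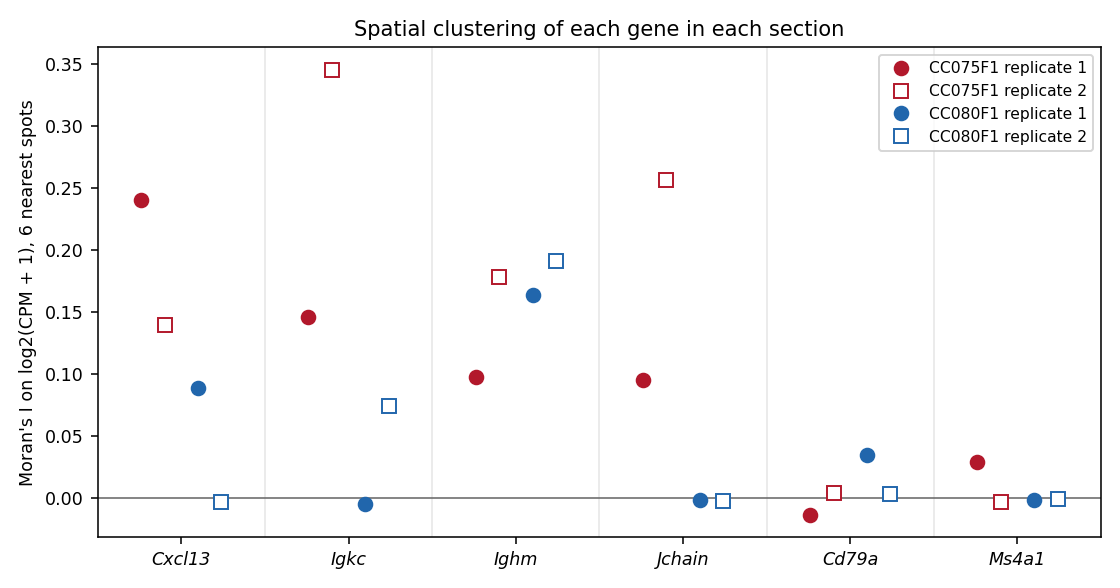
Moran's I of each gene in each section, from log2(CPM + 1) of a spot and its up to 6 neighbours; 1 point is 1 section, red for CC075F1, blue for CC080F1, filled for replicate 1 and open for replicate 2. Igkc reaches 0.346 and Jchain 0.257 in CC075F1 replicate 2, Cxcl13 0.241 in CC075F1 replicate 1, and Cd79a and Ms4a1 stay near 0 in all 4 sections. Ms4a1 rests on 3 to 10 positive spots in a section, too few to show clumps.

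Cxcl13 was spread over the CC075F1 sections, with broad patches in replicate 1. Its Moran's I was 0.241 in replicate 1 and 0.140 in replicate 2, and 0.0888 and 0.00 in CC080F1. In replicate 1, 2175 of its 2214 positive spots joined in 1 group. In replicate 2 the largest of 216 groups had 64 spots. In CC080F1 the positive spots numbered 20 and 13 and no group was larger than 3 spots. The depth-matched odds ratio of a Cxcl13 spot having another as neighbour was 2.88 in CC075F1 replicate 2 and 0.764 in replicate 1, where 81.7% of spots were positive and nearly all had such a neighbour. The value of replicate 1 turned on the settings, at 2.72 in spots of at least 10000 UMIs, 1.13 within 2 steps, 6.15 with 2 UMIs required and 3.19 without depth strata, while that of replicate 2 stayed between 2.86 and 5.14. In CC080F1 the odds ratio was 18.5 and 0, from the few spots there (exact permutation p = 1).

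In CC075F1 replicate 1 Cxcl13 was higher away from the rim. It stood at 64.2 CPM within 3 steps of a position off tissue, 68.4 at 4 to 6 steps, 101 at 7 to 10 steps, 137 at 11 to 15 steps and 120 farther in. Replicate 2 showed no such gradient, with 8.44 to 10.0 CPM over the same 5 zones. Igkc in replicate 1 was 2.31, 3.09, 1.94, 0.767 and 0.726 CPM over these zones, highest at 4 to 6 steps and not at the rim. In replicate 2 it fell from 110 CPM in the outermost zone to 6.96 in the next and 1.19 in the innermost.

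**Figure D4:**
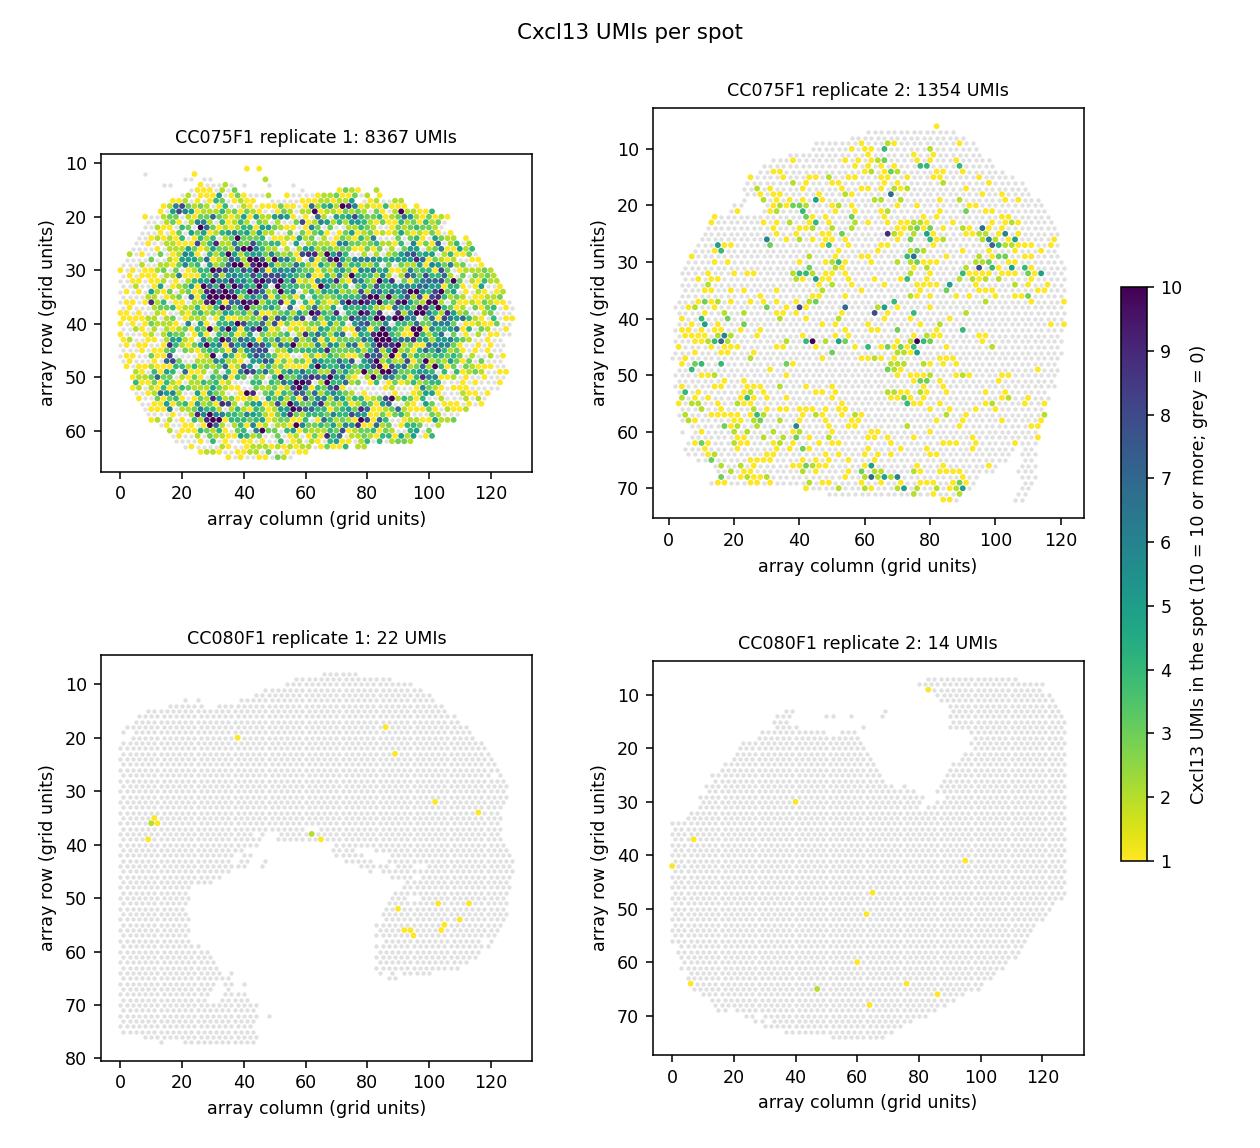
Cxcl13 UMIs of each spot in the 4 sections, drawn at the spot's row and column on the array; grey spots have 0 and colors are capped at 10. CC075F1 replicate 1 is positive in 81.7% of spots with dark patches away from the rim, replicate 2 in 24.8% of spots, and the CC080F1 sections show 20 and 13 positive spots.

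Cxcl13 spots held B spots about as often as other spots of like depth did in CC075F1. In CC075F1 replicate 1, B spots made up 4.56% (exact 95% interval 3.73% to 5.52%) of the Cxcl13 spots and 3.02% (1.70% to 4.94%) of the others, but the Cxcl13 spots were deeper, with a median of 32616 against 22391 UMIs. In replicate 2 the shares were 4.55% (3.22% to 6.21%) and 4.39% (3.61% to 5.27%). At equal depth the odds ratio of Cxcl13 and B spot was 1.16 and 0.951 in the CC075F1 sections. In CC080F1, 0 of 20 and 0 of 13 Cxcl13 spots were B spots, which allows a share of up to 16.8% and 24.7% (exact intervals), limits above the 2.13% and 2.31% of the other spots, so a difference was not detectable at this depth.

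Cxcl13 was not highest around B spots in both sections. In CC075F1 replicate 1 its level was 108 CPM in B spots, 99.8 at 1 step, 101 at 2 steps, 100.3 at 3 steps, 103 at 4 to 6 steps and 83.1 in the 26 spots farther away. In replicate 2 it was 8.38, 8.43, 7.71, 9.78, 11.7 and 12.3 CPM at these distances, lower in B spots than at 3 steps or more. Measured instead from the spots of at least 5 Igkc UMIs, Cxcl13 in replicate 2 was 11.4 CPM in them, 11.5 at 1 step, 9.05 at 2 steps, 14.6 at 3 steps, 11.5 at 4 to 6 steps and 8.33 farther away, with no steady decline. Of the pairs of Cxcl13 with a B cell gene, the depth-matched odds ratios in CC075F1 replicates 1 and 2 were 1.12 and 1.15 for Igkc, 1.12 and 0.941 for Cd79a, and 1.22 and 1.66 for Ighm. They were 2.52 and 1.03 for Jchain, from 16 and 9 shared spots, and 1.72 and 1.48 for Ms4a1, from 9 and 3 shared spots. Ighm had the highest of these odds ratios in replicate 2, with 517 spots holding both where 426 would if the genes were independent. By level in replicate 2, Igkc stood at 30.0 CPM in Cxcl13 spots and 11.7 in the others. Jchain stood at 1.43 and 0.565, Ighm at 26.6 and 19.9, and Cd79a at 0.935 and 1.01. The spot of 814 Igkc UMIs was among these Cxcl13 spots, with 1 Cxcl13 UMI. In replicate 1 the levels were 1.76 and 1.32 for Igkc, 0.281 and 0.176 for Jchain, 31.2 and 26.9 for Ighm, and 1.35 and 1.32 for Cd79a.

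**Figure D5:**
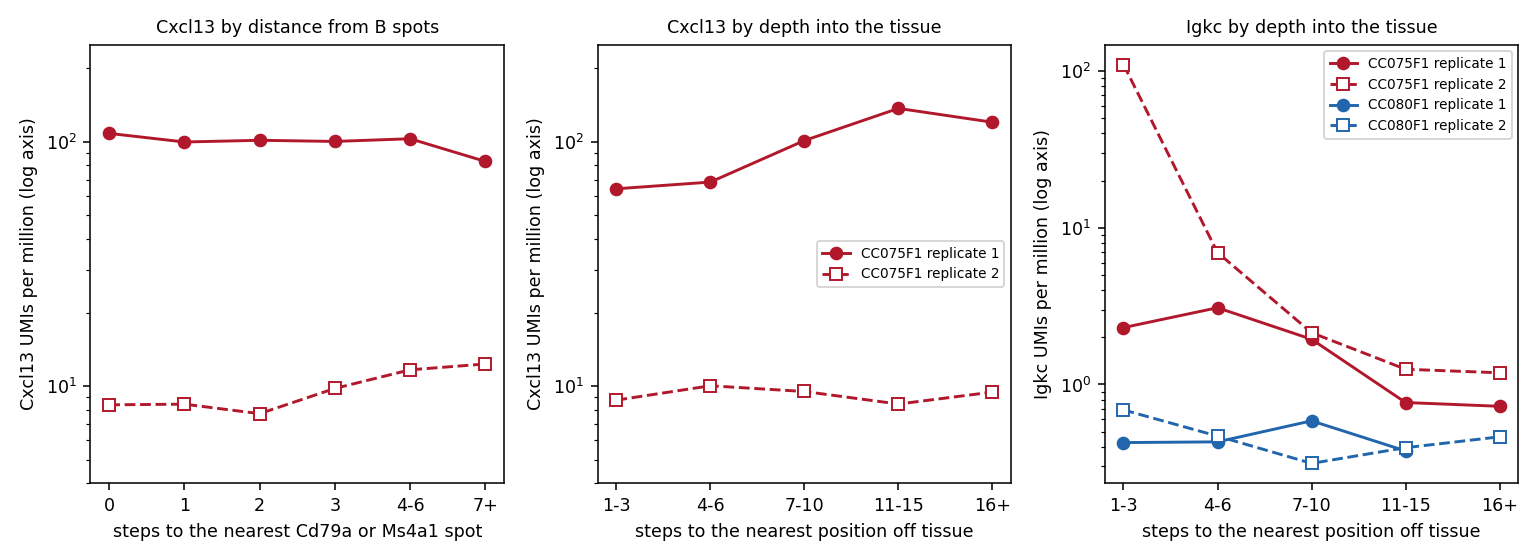
Cxcl13 against the distance to the nearest B spot (left) and to the nearest position off tissue (middle) in the 2 CC075F1 sections, and Igkc against the distance to the nearest position off tissue in all 4 (right), in CPM over the spots of each zone, on log axes; 1 step is 1 spot on the grid. Cxcl13 stays at 99.8 to 108 up to 6 steps from B spots in replicate 1, rises inward from 64.2 to 137 there, and Igkc drops from 110 to 1.19 in replicate 2 (CC080F1 replicate 1 has no spot in the innermost zone).

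Among the genes whose pattern was most like that of Cxcl13 over the 4 sections were Itm2b (mean r 0.202), Adgre1 (0.188), Ms4a7 (0.179) and Fcer1g (0.178). Adgre1 encodes the macrophage surface protein F4/80, Ms4a7 is expressed by macrophages, and Fcer1g encodes an Fc receptor chain of myeloid cells. The values came from the CC075F1 sections, where for Adgre1 r was 0.385 and 0.320, against 0.0286 and 0.0184 in CC080F1. In CC075F1 replicate 2 the genes most like Cxcl13 included Ms4a7 (0.345), Ppia (0.330), Ndufa4 (0.325) and Adgre1 (0.320). In CC075F1 replicate 1, added after the values had been seen because it holds most Cxcl13, they were Col3a1 (0.512), Ccl5 (0.512), Rps24, Rpl23 and Pdlim2 (0.455), so the lists differed by section. In CC075F1 replicates 1 and 2, Cxcl13 correlated with Ighm at 0.237 and 0.270, with Cd79a at 0.0552 and -0.01 and with Igkc at 0.0434 and 0.0187. Its correlation with the summed B cell identity list, whose most abundant gene is Cd72, was 0.297 and 0.223. With the macrophage and monocyte list it was 0.305 and 0.0270, and with the T cell list -0.07 and 0.163. With the fibroblast list, which does not hold Col3a1, it was -0.201 and -0.135, and with the endothelium list -0.294 and 0.0149. All of these describe spots within a library and carry no test.

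Lists of other cell types were read beside the strain difference in Cxcl13. The macrophage and monocyte list (11 genes, 7 with a positive log2 fold change, median 0.22, 0 called, none at 0 UMIs) stood at 5068 and 3371 CPM in CC075F1 and 3134 and 3205 CPM in CC080F1. Levels of lists are over section totals, while the log2 fold changes use TMM scaling. CC075F1 replicate 2 had the lowest TMM factor (0.745, against 1.07 to 1.16 in the others), so TMM scaling raises its level beside theirs. The macrophage genes did not go one way, and Mrc1 and Folr2, named after their values had been seen, had log2 fold changes of -0.70 and -2.37. The T cell list (13 genes, 11 tested, 10 with a positive log2 fold change, median 1.65 against -0.02 over all genes) stood at 94.7 and 72.9 against 37.7 and 41.7 CPM, with Cd40lg at 0 in every section. One of its genes was called, Cd3g, a chain of the T cell receptor complex, with 12.1 and 11.3 CPM in CC075F1 and 3.23 and 2.32 CPM in CC080F1 (log2 fold change 2.42, SE 0.27, edgeR adjusted p = 0.0491). The adipocyte list, in contrast, was lower in CC075F1 (5 of 5 log2 fold changes negative, median -2.80, 0 called), at 30.2 and 29.6 against 65.1 and 49.1 CPM. Most of that level was Fabp4, at 29.7 and 29.0 against 60.5 and 43.3 CPM, with a log2 fold change of -0.48. The median thus describes the scarcer genes of the list. The other lists had 0 genes called, with median log2 fold changes of -0.19 (plasmacytoid dendritic cells), 0.23 (fibroblasts), -0.47 (endothelium), 1.40 (keratinocytes), 0.90 (erythrocytes) and 0.03 (tumor line). The part of these cells in the Cxcl13 levels was not tested.

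The receptor of CXCL13 was scarce in every section. Cxcr5, singled out because it is the receptor, had 7, 7, 6 and 9 UMIs, CC075F1 first, and did not reach the test. Other genes of its list were not scarce, and the list summed to 101 and 84.2 CPM in CC075F1 and 101 and 93.0 CPM in CC080F1, with Ltbr the most abundant. Of the 13 genes of the receptor and lymphoid chemokine list, 10 were tested, 7 had a positive log2 fold change (median 0.41 against -0.02 over all genes) and 0 were called. Tnfsf13b, which encodes the B cell survival factor BAFF, came closest, with 16.8 and 11.2 CPM in CC075F1 and 4.70 and 5.94 CPM in CC080F1 (log2 fold change 1.67, SE 0.24, edgeR adjusted p = 0.0778). Ltbr, the receptor of lymphotoxin, Tnfsf13, which encodes the related factor APRIL, and the chemokine receptor gene Cxcr4 had log2 fold changes of 0.10, 0.52 and -0.27, with adjusted p from 0.830 to 0.910.

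The list of high endothelium, lymphatics and follicular stroma, the structures of lymphoid tissue, had 10 of its 11 genes in the tables. Of these, 6 were tested, 3 had a positive log2 fold change and 0 were called (median 0.08). Its most abundant genes were Mfge8, Pdpn, Clu and Lyve1, with log2 fold changes of -0.11, -0.45, 0.28 and -2.40. Lyve1, a gene of lymphatic vessels and some macrophages, had 0.40 and 0.498 CPM in CC075F1 and 1.58 and 4.43 CPM in CC080F1 (edgeR adjusted p = 0.455). Glycam1, Madcam1 and Chst4, genes of high endothelium named after their values had been seen, had at most 13 UMIs in any section.

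Of the 23 genes in the B cell identity list, 16 were tested, 10 had a positive log2 fold change (median 0.05 against -0.02 over all genes), 3 had an unadjusted p under 0.05 and 0 were called. The most abundant were Cd72, Blnk, Ebf1 and Cd180, which are B cell genes also known from myeloid or stromal cells. Cd72, an inhibitory receptor, stood at 45.2 and 52.0 CPM in CC075F1 and 33.7 and 30.2 CPM in CC080F1 (log2 fold change 0.96, SE 0.26, edgeR adjusted p = 0.509), and the strains did not overlap. Blnk, an adaptor of B cell receptor signalling, and Cd180 had log2 fold changes of 0.02 and 0.11. Ebf1, a B cell transcription factor also found in stroma, had -0.56, with adjusted p = 0.830. Summed, the list stood at 82.4 and 78.4 CPM in CC075F1 and 71.7 and 68.7 CPM in CC080F1, and 0 of its genes were at 0 in all sections.

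Of the 14 genes of antibody-secreting cells and switched heavy chains, 8 were tested, 5 had a positive log2 fold change (median 0.11) and 0 were called. The 4 most abundant were Txndc5, Xbp1, Sdc1 and Prdm1, genes of secretion that other cells use as well, and they ran from -0.25 to 0.17 in log2 fold change, with adjusted p from 0.832 to 0.979. Mzb1, more particular to antibody-secreting cells and named after its values had been seen, had 12, 43, 6 and 3 UMIs, CC075F1 first, a log2 fold change of 2.72 (SE 0.78) and an adjusted p of 0.571 in edgeR. Ighe was at 0 in every section.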

How the data were processed

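RNA was captured on 10x Genomics Visium slides from 4 fresh frozen sections, each of a separate MC38 tumor and taken as the replicate. The authors aligned reads with Space Ranger 1.3.1 to GRCm38 (mm10) with GENCODE vM23. The tables as deposited give raw UMI counts for each gene in each spot under tissue, with no normalization, and the deposited position lists give the grid. Matrix rows were matched to the 6 gene symbols. UMI counts were summed by section, filtered with filterByExpr and tested by the quasi-likelihood method of edgeR 4.0.16 in R 4.3.3, scaled by TMM, with strain as the only term, adjusted by Benjamini-Hochberg over 15572 genes with a threshold of 0.05. For values of whole sections the exact permutation test (two-sided) was used. Shares carry exact (Clopper-Pearson) 95% intervals. Odds ratios are Mantel-Haenszel over 10 depth strata, Moran's I uses the 6 nearest spots, and the edge is within 3 steps of a position off tissue. The fits and spatial measures were tested on simulated data. Section depth was 82594649 to 146460975 UMIs, so 3 UMIs, the limit that a count of 0 allows, are 0.0205 to 0.0363 CPM. Sections are replicates as labelled, and p-values come from section values, not from spots. The genes and lists were chosen with earlier results of these data known. Named genes are the 6, up to 4 of the most abundant of the lists described, any list gene that passed, and the 5 most alike, of which some are not reported here. Of 14 lists, those for plasmacytoid DC, fibroblasts, endothelium, keratinocytes, adipocytes, erythrocytes and the tumor line had 0 genes called. Alternatives were other scalings (DESeq2 1.42.0 size factors, section totals), tests (DESeq2, limma-voom in limma 3.58.1), filters, spots and sections left out.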

Additional observations from a re-analysis of the deposited data

How the results depend on the processing

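Across alternatives, Cd79a kept its direction in all 12 and passed the threshold in none. Cxcl13 kept its direction in all 12. It passed with section totals alone (log2 fold change 8.27), no filter on low counts (8.38), the DESeq2 Wald test (8.40) and the replicate block (8.04). It did not pass with DESeq2 size factors, limma-voom, interior spots only or without muscle, skin and fat spots. In the 4 fits without 1 section its log2 fold change was 6.29 to 9.22. Igkc passed with section totals alone (4.30), no filter (4.84) and the replicate block (3.94), and stood at 1.93 to 5.74 in the 4 fits without 1 section. Jchain passed with no filter (3.41), the DESeq2 Wald test (3.45) and the replicate block (3.17), and stood at 2.00 to 4.10 in the 4 fits without 1 section. It was left out by the filter in interior spots. Ighm changed sign with section totals alone (-0.22), in interior spots (-0.0096) and without CC080F1 replicate 2 (-0.22 to 0.52 over the 4). Genes called numbered 14, against 40 with section totals alone, 480 with no filter (2.13% of 22507), 194 with DESeq2 (1.25%), 287 with the replicate block (1.84%) and 11 to 207 without 1 section (138 without CC080F1 replicate 1, 207 without CC080F1 replicate 2). In these last fits a lone section is assumed to vary like the others. The replicate numbers in the labels name no shared litter or day, and same-numbered sections deviated together at r = 0.165 over genes, with 2 pairs, so the replicate block was not taken as a pairing.

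The ratio of B spot shares became 0.989 when Ighm was added to Cd79a and Ms4a1. The level of the 5 B cell genes, 1.17 times higher in CC075F1, was 0.898 times without Igkc, 0.930 times without spots of at least 5 Igkc UMIs (chosen after seeing the data) and 0.914 to 1.64 times without 1 section (0.914 without CC080F1 replicate 2). The strain difference (CC075F1 minus CC080F1) of the Cxcl13 neighbour odds ratio was -7.45, and 1.82 without CC080F1 replicate 1 (-16.7 to 1.82 over the 4), and the CC075F1 replicate 1 value moved from 0.764 to between 1.13 and 6.15 with other depth, distance or UMI limits. The strain difference of the Cxcl13 and B spot odds ratio was 1.05, and -1.33 with Ighm added. In CC080F1 this odds ratio was 0 in both sections before Ighm was added. There, only 0.402 and 0.287 spots would hold both Cxcl13 and Cd79a if the genes were independent, so the 1.05 gives no comparison of strains. With 2 UMIs required, the B spot neighbour odds ratio was 0 in both strains and gave no comparison. The CC080F1 values of the Cxcl13 neighbour odds ratio were 18.5 and 0, so without CC080F1 replicate 1 only the 0 was left. Ighm was in 45.1% to 65.4% of spots, against 2.12% to 4.43% for B spots. Beyond these values the cause of the shifts was not tested. Depth limits Ms4a1, Cxcr5 and the CC080F1 values of Cxcl13 and Jchain, which rest on 3 to 22 UMIs.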
